A study of Mus musculus with 18 samples.

Results

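The 10 genes described here encode ligands through which a tumor cell can restrain immune cells: *Cd200*, *Cd274* (PD-L1), *Pdcd1lg2* (PD-L2), *Cd47*, *Cd276* (B7-H3), *Pvr* (CD155), *Nectin2* (CD112), *Lgals9* (galectin-9), *Vtcn1* (B7-H4) and *Nt5e* (CD73). They are 10 of the 35275 genes in a table of read counts, taken by name. *Nectin2* stands there under its older name *Pvrl2* and was found by its Ensembl identifier. The list was chosen by results of the same comparison of genotypes that is given below, in which *Cd200* stood out, so the members' differences between genotypes are given as a description, and nothing is read from their test.

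RNA was sequenced from 3 cultures of each of 6 mouse malignant peripheral nerve sheath tumor (MPNST) cell lines, 18 libraries in all, to ask how loss of p53 and loss of *Cdkn2a* differ in their effect on transcription. Every tumor arose in a wild-type 129 Sv/Jae mouse after an adenovirus with CMV-driven Cas9 and guide RNAs was injected into the sciatic nerve, and each line came from a different tumor. In 3 lines the guides targeted *Nf1* and p53 (Nf1-/-;p53-/-, called the *Nf1*/*p53* dKO or *p53*-deleted lines), and in the other 3 they targeted *Nf1* and *Cdkn2a* (Nf1-/-;Cdkn2a-/-, the *Nf1*/*Cdkn2a* dKO or *Cdkn2a*-deleted lines). All lines thus share the loss of *Nf1*, exposure to Cas9 and growth in serum without treatment, and no line with *Nf1* alone deleted and no normal nerve was analysed here. The CMV promoter does not limit Cas9 to Schwann cells, and a line stands for 1 tumor, so n is 3 tumors per genotype. The labels name no added interferon or immune cells.

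An immune checkpoint is a receptor on an immune cell that dampens its activity once a ligand on another cell binds it. PD-1 on T cells binds PD-L1 and PD-L2, the CD200 receptor on myeloid cells binds CD200, SIRPα on macrophages binds CD47 and thereby blocks engulfment, and TIGIT on T and NK cells binds CD155 and CD112. Galectin-9 is a ligand of TIM-3, and CD73 on the cell surface turns AMP into adenosine, which acts on immune cells through its receptors. MPNST arises from the nerve sheath after loss of NF1 and usually of CDKN2A, with p53 lost in part of the tumors.

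The promoter windows of 3 members are shown because *Cd200* had the largest fitted difference between genotypes of the 8 members tested, while *Cd274* and *Lgals9* carry letters of the interferon-stimulated response element, the DNA element bound by the IRF factors listed among the regulators of *Cd274* below. Each is the RefSeq window from 250 bases before to 50 bases after the start of transcription in GRCm38.p6, written 5′ to 3′ on the gene's strand, with motif matches in capitals.
Cd200, chr16:45409004-45409303, minus strand: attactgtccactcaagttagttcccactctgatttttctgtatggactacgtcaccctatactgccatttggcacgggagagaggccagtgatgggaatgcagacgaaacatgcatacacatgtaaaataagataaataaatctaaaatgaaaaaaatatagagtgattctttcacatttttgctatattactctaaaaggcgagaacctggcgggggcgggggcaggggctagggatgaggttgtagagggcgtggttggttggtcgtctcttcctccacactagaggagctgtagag
Cd274, chr19:29367188-29367487, plus strand: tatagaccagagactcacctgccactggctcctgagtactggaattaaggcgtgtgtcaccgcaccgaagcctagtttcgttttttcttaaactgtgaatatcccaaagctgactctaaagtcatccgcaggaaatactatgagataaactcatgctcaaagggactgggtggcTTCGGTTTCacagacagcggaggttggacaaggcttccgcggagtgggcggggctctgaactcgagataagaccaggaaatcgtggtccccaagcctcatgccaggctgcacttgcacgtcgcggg
Lgals9, chr11:78984875-78985174, minus strand: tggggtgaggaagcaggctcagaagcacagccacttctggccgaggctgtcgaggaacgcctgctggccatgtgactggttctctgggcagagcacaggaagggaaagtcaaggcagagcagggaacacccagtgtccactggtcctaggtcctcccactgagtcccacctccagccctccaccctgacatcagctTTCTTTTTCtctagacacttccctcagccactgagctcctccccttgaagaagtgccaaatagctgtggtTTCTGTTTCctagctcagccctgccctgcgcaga

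A set of 5 motifs was searched on both strands of the windows that RefSeq gave for 9 of the 10 members, all but *Pvr*. The interferon-stimulated response element, GAAANNGAA, matched once in *Cd274*, 76 to 68 bases before the start, and in *Lgals9* at 54 to 46 bases before the start and again 17 to 25 bases into the transcript. It is present in 8.56% of the 32851 mouse promoter windows of the same length. The STAT motif TTCNNNGAA (8.3% of windows) matched in no member, and its letters can overlap those of the former. The AP-1 motif TGANTCA (7.81%) matched in *Vtcn1*, the antioxidant response element TGACNNNGC (12.4%) in *Nectin2*, and CAGCTG (16.3%), the E-box of the muscle factors, in *Pdcd1lg2*. None of the 5 was found in the windows of *Cd200*, *Cd47*, *Cd276* or *Nt5e*, which says only that these letters are absent from these 300 bases. Across the 9 members, the windows ranged from 45.0% GC in *Cd200* to 78.3% in *Cd276*.

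The members lie on 6 chromosomes, in 3 close pairs or neighborhoods. In GRCm38, *Cd274* (chr19:29367455-29388095) and *Pdcd1lg2* (chr19:29410919-29471161) are 22.8 kb apart on the same strand. *Nectin2* (chr7:19716644-19750483) and *Pvr* (chr7:19903578-19921160) are 153.1 kb apart, also on the same strand, and *Lgals9* (chr11:78962974-78984946) is 354.7 kb from the edited gene *Nf1*. *Cd200* (chr16:45382135-45409053) and *Cd47* (chr16:49800533-49915010) share a chromosome but are 4.39 Mb apart. *Cd276* (chr9:58524298-58555437) and *Nt5e* (chr9:88327197-88372092) share chromosome 9, and *Vtcn1* (chr3:100825459-100896922) is alone on chromosome 3. Annotated antisense genes share exon bases with *Cd274* (511 bases), *Cd276* (416 bases) and *Nectin2* (135 bases), and since the strand setting of the counting was not given in the sources used here, reads of these pairs cannot be told apart. The antisense partner of *Nectin2* had 4 counts over all libraries.

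The libraries held 19560535 to 28312207 counts and a line, with its 3 cultures added up, 65206479 to 73065228. The labels call the cells mesenchymal, and all 9 mesenchymal markers examined were measured, with summed levels of 8373 to 22630 CPM (reads of a gene relative to all reads of its library, after TMM scaling) in the *p53*-deleted lines and 10829 to 18496 CPM in the *Cdkn2a*-deleted lines. Schwann cell genes summed to 2.84 to 68.3 and 1.35 to 2.502 CPM, and the defining genes *Sox10* and *Gfra3* had 18 counts and 0 counts over all 18 libraries. Endothelial genes summed to 1.65 to 2.45 and 8.28 to 25.8 CPM, mostly *Esam* in the latter. Markers of leukocytes summed to 4.21 to 8.35 and 18.7 to 26.9 CPM, of which *Laptm5* took most in the *Nf1*/*Cdkn2a* dKO, while *Ptprc* (CD45) reached at most 0.56 CPM and *Tyrobp* had 4 counts in all. The leukocyte marker *Cd68* had 4.38, 2.46 and 1.96 against 5.20, 7.14 and 4.33 CPM, and *Csf1r* 2.98, 3.17 and 1.48 against 0.87, 0.72 and 2.92 CPM. Of these genes *Laptm5* and *Esam* were called higher (adjusted p = 0.030 and 0.038) and *Tek*, an endothelial receptor, lower (0.046) in the *Nf1*/*Cdkn2a* dKO with edgeR. *Tek* had 0.41, 0.57 and 1.08 against 0.06, 0.07 and 0.08 CPM. *Laptm5*, *Esam* and *Tek* passed the filter on low counts through the genotype where each is high, so their calls are a description. *Trp53* had 94.1, 67.5 and 58.7 CPM in the *p53*-deleted lines and 246.9, 246.0 and 184.8 CPM in the *Cdkn2a*-deleted lines. *Nf1* (70.0, 33.5 and 27.7 against 12.7, 38.3 and 16.2 CPM) and *Cdkn2a* (363, 279.2 and 42.9 against 168.8, 391.6 and 284.6 CPM) overlapped between genotypes, and since an edit need not lower the RNA, neither level checks a label.

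**Figure D1:**
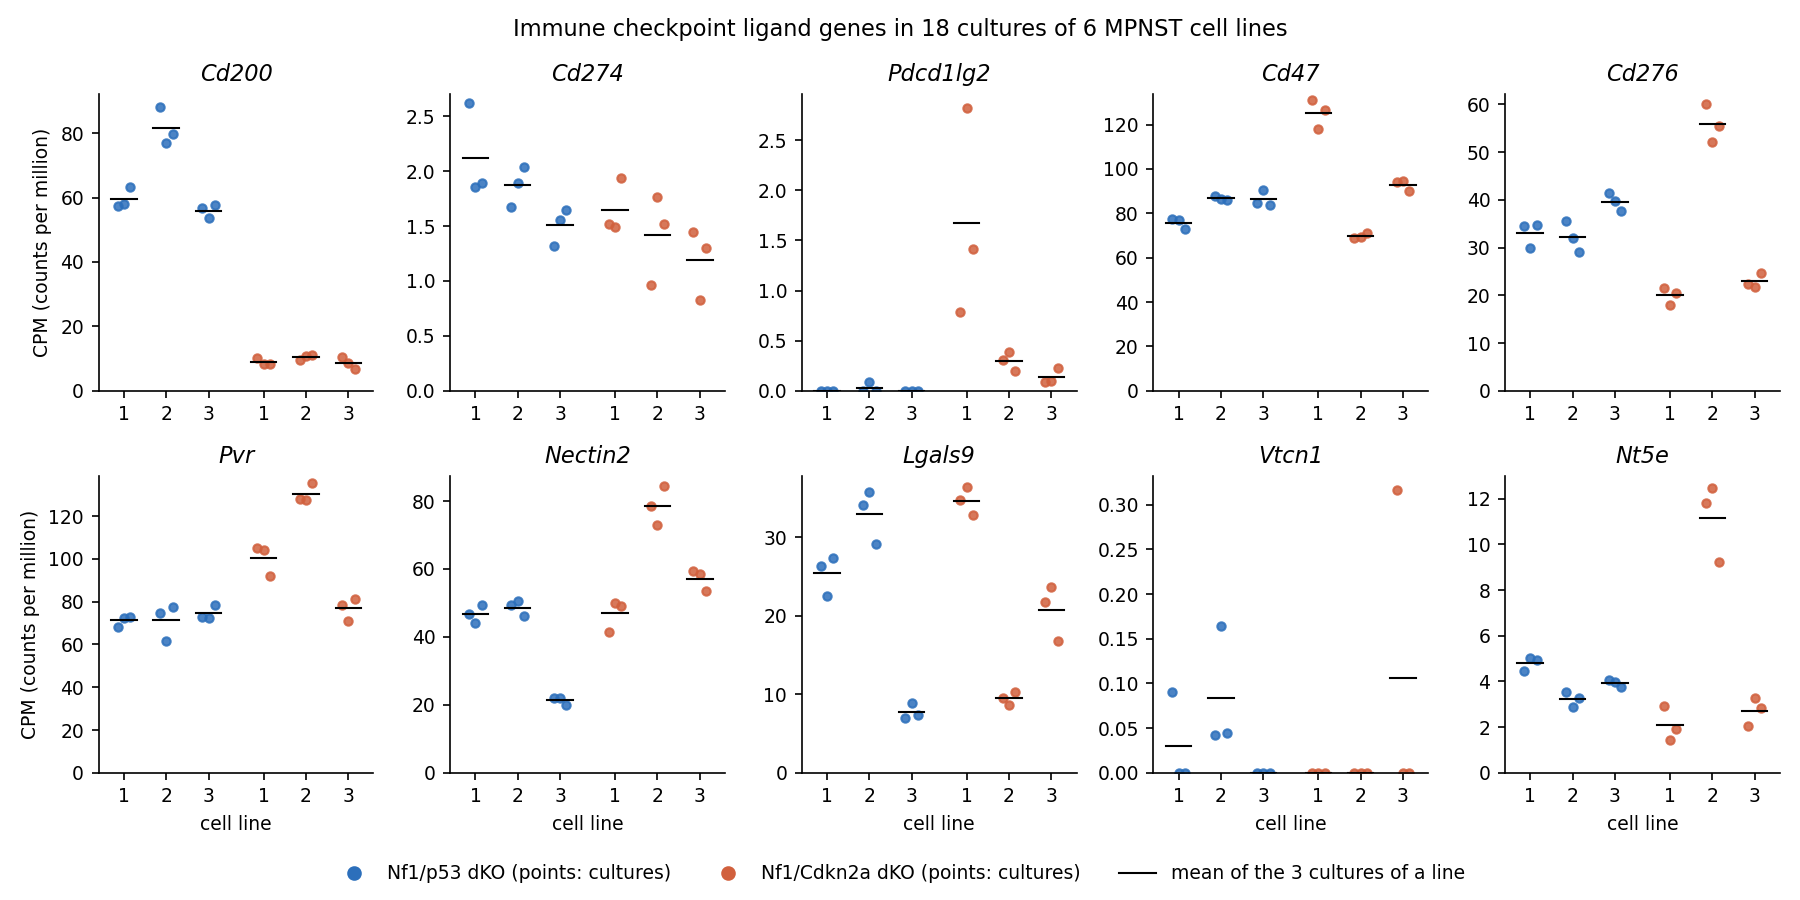
Level of each ligand gene in CPM (vertical axis, from 0) in the 3 cultures (points) of each cell line (horizontal axis), with the mean of the cultures as a bar. For *Cd200* the 9 *p53*-deleted cultures lie between 53.5 and 88.2 CPM and the 9 *Cdkn2a*-deleted cultures between 6.68 and 11.0 CPM, while for the other abundant ligands single lines stand out within a genotype.

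*Cd200*, a membrane glycoprotein that signals to CD200 receptors on myeloid cells, had the largest fitted difference between genotypes of the 8 ligand genes tested. Its levels were 59.2, 81.7 and 55.9 CPM in the *p53*-deleted lines and 8.95, 10.4 and 8.59 CPM in those lacking *Cdkn2a*. The lowest, median and highest of 9 cultures were 53.5, 58.0 and 88.2 CPM in the former and 6.68, 9.40 and 11.0 CPM in the latter. No culture of either genotype reached the range of the other. The mean was 65.6 ± 14.0 CPM against 9.30 ± 0.93 CPM (SD, n = 3 lines each), and the fitted log2 fold change was −2.82 (standard error 0.21; *Nf1*/*Cdkn2a* dKO minus *Nf1*/*p53* dKO), a level 7.05-fold higher in the *Nf1*/*p53* dKO. Each *Cdkn2a*-deleted culture still held 144 to 249 *Cd200* reads, so the gene was detected in all of them.

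Because the list was chosen with this contrast known, the count of members called in it is no test of them and is given as a description alone. Of the 8 members that passed the filter on low counts, it was 1 (*Cd200*), where 1.80% of the 15207 genes tested were called (edgeR's quasi-likelihood test on the 6 lines, adjusted p under 0.05 after Benjamini-Hochberg). The count fell to 0 without *Cdkn2a*-deleted line 1 or without line 2, fits in which 0 and 2 genes in all were called. The lines of 2 of the 8, *Cd200* and *Pvr*, did not overlap between genotypes, as was the case for 31.4% of the genes tested. The median log2 fold change was 0.10 over the 8 members and −0.02 over all tested genes. *Pdcd1lg2* and *Vtcn1* did not pass the filter and are given by their counts.

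Genes that mark muscle progenitors also lay lower in the *Cdkn2a*-deleted lines. The 6 markers of the list summed to 53.7 to 417 CPM in the *p53*-deleted lines and to 0.20 to 0.80 CPM in the *Cdkn2a*-deleted lines, 4 of the 6 passed the filter, and *Myf5* and *Cdh15* were called lower in the *Nf1*/*Cdkn2a* dKO (adjusted p = 0.0067 and 0.019 with edgeR). *Myf5*, a myogenic transcription factor, had 28.0, 24.2 and 27.7 CPM against 0, 0 and 0.02 CPM, while *Pax7*, which defines muscle stem cells, had 3 counts in all libraries together. *Pax7* and *Myog* did not pass the filter. *Myf5* and *Cdh15* (at most 0.33 CPM in the *Cdkn2a*-deleted lines) passed it through the *p53*-deleted lines, so their calls are a description and no fold is given. Within the *Nf1*/*p53* dKO the muscle markers *Myod1* (1.75, 0.27 and 203.6 CPM) and *Des* (21.6, 1.301 and 86.6 CPM) were lowest in line 2, where *Cd200* was highest. The part of these genes in the *Cd200* difference was not tested. In bulk RNA, fewer cells of a type and less RNA per cell cannot be told apart, and this holds for all levels given here.

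Among the 3 *Cdkn2a*-deleted lines *Cd200* had the smallest range of the 8 ligand genes compared between lines in both genotypes. It ranged over 0.28 on the log2 scale (1.21-fold) and did not pass the test for a difference between lines (adjusted p = 0.12, edgeR F test on 3 cultures per line). Without culture 1 of every line, the range was 0.52 and passed (adjusted p = 0.0051). Among the 3 *p53*-deleted lines, where line 2 was highest, the range was 0.55 (1.46-fold) and passed (adjusted p = 2.5e-05). These tests compare lines against the spread between cultures of a line, and thus speak of these 6 lines and not of other tumors.

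The receptors for CD200 were at or near 0 in the same cells. Over all 18 libraries *Cd200r1* had 0 counts, *Cd200r2* 8, *Cd200r3* 2 and *Cd200r4* 1.

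The genes whose level most resembled *Cd200* over the 18 cultures, among 10310 with a mean of at least 5 CPM, were *Ncam1* (Pearson r = 0.985, Spearman rho = 0.820), *Myf5* (0.983, 0.700), *Psph* (0.980, 0.756), *Aldh18a1* (0.979, 0.862) and *Vegfc* (0.979, 0.829). These correlations are descriptions over cultures that share lines, and they follow the step between genotypes: in all, 59 genes had an r over 0.95. *Ncam1*, which encodes a neural cell adhesion molecule, had 66.0, 91.0 and 65.0 CPM in the *p53*-deleted lines and 15.8, 13.5 and 13.9 CPM in the *Cdkn2a*-deleted lines, so its highest line was line 2 of the *Nf1*/*p53* dKO, as for *Cd200*. After each genotype's mean was subtracted, r with *Cd200* over the 9 *p53*-deleted cultures was 0.897 for *Ncam1* and 0.804 for *Psph*, a serine synthesis enzyme, but −0.919 for *Myf5*. Over the 9 *Cdkn2a*-deleted cultures it was 0.122 for *Ncam1*, −0.563 for *Psph* and −0.162 for *Myf5*. *Aldh18a1*, an enzyme of proline synthesis, gave 0.637 and 0.543, and *Vegfc*, a lymphatic growth factor, 0.157 and 0.723. None of the 5 was among the 5 most similar genes when the 6 line sums or Spearman's rho were used in place of Pearson's r over cultures.

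The genes around *Cd200* on chromosome 16 were not called with edgeR. Of 19 genes of the table within 500 kb, 7 passed the filter. With edgeR 0 of the 7 were called or had an unadjusted p under 0.05, beside 22.4% of all tested genes with such a p. DESeq2 called 0 and limma-voom 1 of the 5 it tested. Over all genes DESeq2 called 2171 of 15207 and limma-voom 2173 of 13110, the background for all counts by these tools below. Their log2 fold changes ran from −1.65 (*Tagln3*, standard error 0.86) to 1.26 (*Phldb2*, 0.62), with a median of −0.24. The nearest tested gene, *Gm6030*, is 176.6 kb away and had 0.39 CPM or less in every line, and the autophagy gene *Atg3* at 193.6 kb had a log2 fold change of 0.17 (standard error 0.29). *Slc35a5* (0.48), *Ccdc80* (−0.24) and *Abhd10* (−0.29), the remaining tested neighbors, lay between these extremes. The lines of the 7 overlapped between genotypes, where those of 31.4% of all tested genes did not.

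**Figure D2:**
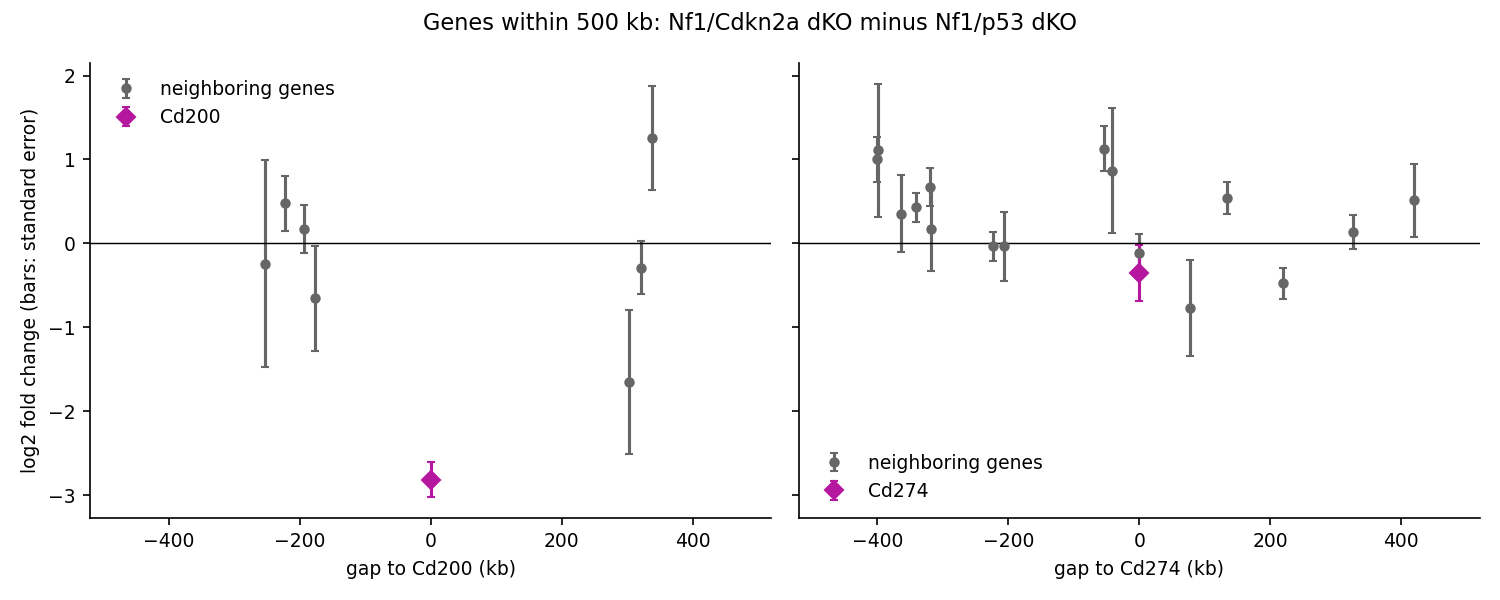
Log2 fold change between genotypes (vertical axis, bars show the standard error) of the tested genes within 500 kb, against the gap in kb to *Cd200* (left) or *Cd274* (right); the diamond is *Cd200* or *Cd274* itself. *Cd200* at −2.82 lies below its 7 neighbors (−1.65 to 1.26), and *Cd274* at −0.35 lies within the range of its 16 neighbors (−0.77 to 1.13).

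The ligands of PD-1 were expressed at low levels. *Cd274* had 2.08, 1.87 and 1.51 CPM in the *p53*-deleted lines and 1.67, 1.40 and 1.204 CPM in the *Cdkn2a*-deleted lines. The highest *Cdkn2a*-deleted line lay above the lowest *p53*-deleted line, and the log2 fold change was −0.35 (standard error 0.33). *Cd274* rested on 17 to 58 reads per culture, and the lowest count of 17 has a 95% Poisson interval of 9.90 to 27.2, which covers counting error only. At this depth no difference was detectable between the lines of either genotype (adjusted p = 0.34 for the *p53*-deleted and 0.45 for the *Cdkn2a*-deleted lines, edgeR). *Pdcd1*, the gene of PD-1 itself, had 0 counts in every library.

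*Pdcd1lg2* was counted almost wholly in the *Nf1*/*Cdkn2a* dKO. The 3 *p53*-deleted lines had 0, 2 and 0 counts and the 3 *Cdkn2a*-deleted lines 102, 21 and 9, or 1.64, 0.30 and 0.14 CPM. Line 1 thus gave most of the reads, and culture 2 of that line alone gave 53. The pooled counts of 132 and 2, scaled to the libraries, have a ratio of 74.4 with an exact 95% interval of 20.2 to 621, which covers counting error and not the spread between lines. Each *p53*-deleted line had fewer than 3 counts, so the size of the difference is not determined. The gene passed the filter on cultures through line 1, so no test between its lines is given. *Cd274*, 22.8 kb away, was counted in every culture of both genotypes.

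Around *Cd274*, 16 genes within 500 kb passed the filter, of which 0 were called with edgeR. An unadjusted p under 0.05 was seen for 6, beside 22.4% of all tested genes. DESeq2 called 2 and limma-voom called 3 of 13. The median log2 fold change of the 16 was 0.39, with 11 values above 0 and 5 below. The highest was *Jak2*, a kinase that passes on the interferon signal to which PD-L1 responds, 54.4 kb away. *Jak2* had 69.5, 68.8 and 55.2 CPM in the *p53*-deleted lines and 136.0, 96.1 and 191.4 CPM in the *Cdkn2a*-deleted lines, which do not overlap (difference of 1.13 on the log2 scale, standard error 0.26, adjusted p = 0.08 with edgeR). Between *Jak2* and *Cd274*, *Insl6* had 0.87 (standard error 0.74), and *Plgrkt*, which starts 0.1 kb from *Cd274*, had −0.11 (standard error 0.22). The lowest was *A930007I19Rik* (−0.77, standard error 0.57), which lies opposite *Pdcd1lg2*. *Plpp6* (1.00), *Ak3* (0.67), *Ric1* (0.54), *Cdc37l1* (0.43) and *Ermp1* (−0.48) also had lines that do not overlap between genotypes. With *Jak2* these were 6 of the 16, beside 31.4% of all tested genes. In the other tested neighbors (*Rcl1*, *1700018L02Rik*, *Gm5518*, *Ranbp6*, *9930021J03Rik*, *4430402I18Rik* and *Gm10136*) the lines overlapped.

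The regulators of *Cd274* include interferon receptors, JAK-STAT and IRF genes, NF-κB and the proteins that stabilize or degrade PD-L1. All 24 passed the filter and 0 were called with edgeR between genotypes. An unadjusted p under 0.05 was seen for 5, 2 higher and 3 lower, beside 22.4% of all tested genes. DESeq2 on the lines called 3 and limma-voom 4, where they called 2171 of 15207 and 2173 of 13110 genes in all. The median log2 fold change of the list was 0.07, beside −0.02 for all tested genes. *Jak2* had the highest value of the list and *Irf1*, an interferon-induced transcription factor, the lowest. *Irf1* had 32.0, 29.9 and 58.9 CPM in the *p53*-deleted lines and 10.8, 11.4 and 15.9 CPM in the *Cdkn2a*-deleted lines, which gave −1.66 on the log2 scale (standard error 0.32, adjusted p = 0.055 with edgeR). The groups did not overlap, and the adjusted p of *Irf1* was 8.8e-05 with DESeq2 and 0.00029 with limma-voom, against 0.0031 and 0.0033 for *Jak2*. *Cd274*, whose window holds the IRF letters shown above, had a value of −0.35 (standard error 0.33) with lines that overlap. *Lgals9*, whose window holds the same letters, had −0.02 (standard error 0.63). Whether either gene follows *Irf1* was not tested.

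**Figure D3:**
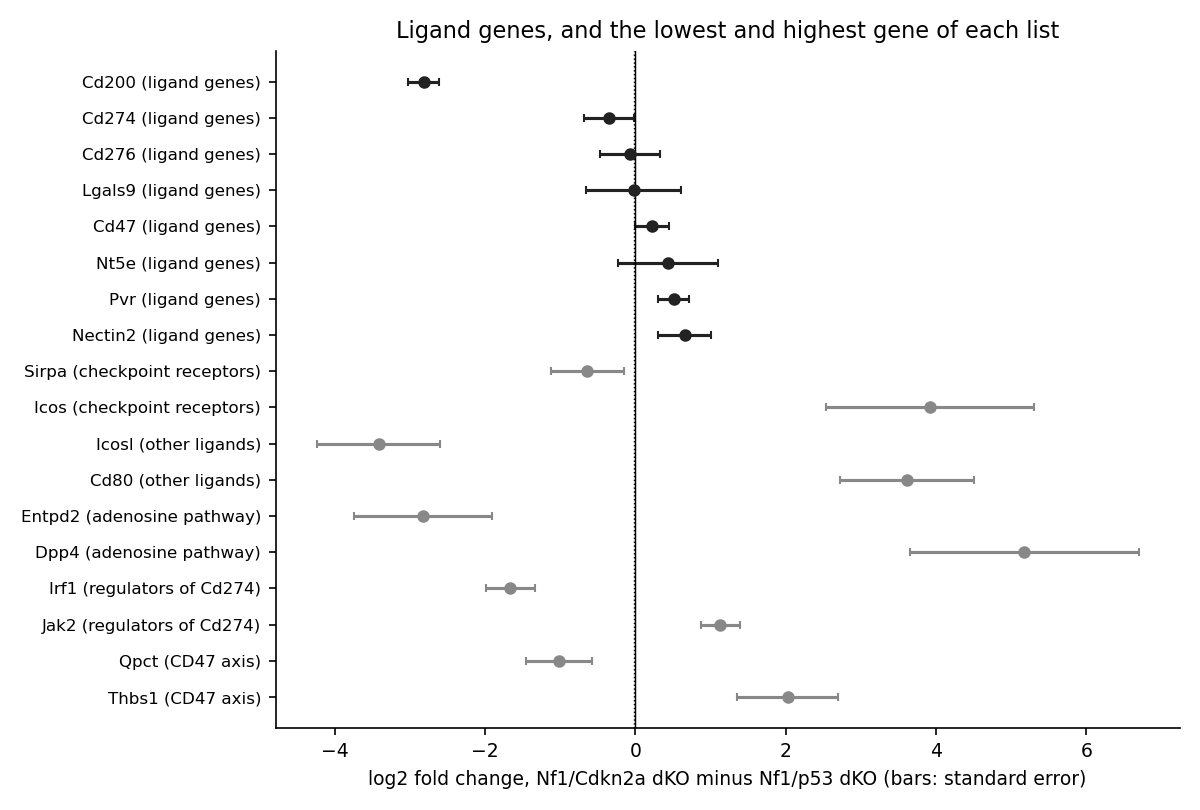
Log2 fold change between genotypes (horizontal axis, positive is higher in the *Nf1*/*Cdkn2a* dKO, bars show the standard error) for the 8 tested ligand genes (black) and the lowest and highest tested gene of each of the 5 pathway lists (gray). The solid line is 0 and the dotted line the median of all tested genes (−0.02). *Cd200* at −2.82 stands apart from the other 7 ligand genes, which lie between −0.35 and 0.65.

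Of the other B7 family members, *Cd276* was expressed in every line and *Vtcn1* was barely counted. *Cd276*, whose receptor on T cells is not settled, had 32.6, 32.2 and 39.6 CPM in the *p53*-deleted lines and 20.1, 56.2 and 23.1 CPM in the *Cdkn2a*-deleted lines (log2 fold change −0.07, standard error 0.40). Line 2 of the *Nf1*/*Cdkn2a* dKO stood above all other lines, and the other 2 lines of that genotype below all other lines. The 3 *Cdkn2a*-deleted lines ranged over 1.48 on the log2 scale (adjusted p = 1.9e-13, edgeR F test). The 3 *p53*-deleted lines ranged over 0.30 (adjusted p = 0.0085), which no longer passed without culture 2 (adjusted p = 0.086). Without line 2 of the *Nf1*/*Cdkn2a* dKO, the log2 fold change of *Cd276* between genotypes was −0.68. *Vtcn1* had 2, 6 and 0 counts in the *p53*-deleted lines and 0, 0 and 7 in the *Cdkn2a*-deleted lines, where all 7 came from culture 1 of line 3. A count of 0 allows up to 3 counts, or 0.039 to 0.048 CPM per line, so no fold is given.

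Other ligands of checkpoint and costimulatory receptors were called in neither direction with edgeR. Of 24 genes of this list, 16 passed the filter and 0 were called with edgeR. An unadjusted p under 0.05 was seen for 3, beside 22.4% of all tested genes. DESeq2 called 3 and limma-voom 1 of 13. The median log2 fold change of the 16 was −0.09. The highest was *Cd80*, a ligand of CD28 and CTLA-4 that also binds PD-L1, with 0.10, 0.48 and 0.32 CPM in the *p53*-deleted lines and 7.65, 1.80 and 1.63 CPM in the *Cdkn2a*-deleted lines (difference of 3.61 on the log2 scale, standard error 0.89, adjusted p = 0.087 with edgeR). The lowest was *Icosl*, the ligand of ICOS, with 0.94, 2.22 and 7.17 CPM against 0.21, 0.35 and 0.41 CPM (difference of −3.42 on the log2 scale, standard error 0.82, adjusted p = 0.085 with edgeR). Neither gene's lines overlapped between genotypes, and both genes were called with DESeq2 (adjusted p = 0.00032 and 0.00039). *Cd48*, *Cd70* and *Tnfsf4*, named after their values were seen, had 0 counts in every library.

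*Cd47*, the signal that restrains engulfment by macrophages, was abundant in every line. It had 75.4, 86.6 and 86.3 CPM in the *p53*-deleted lines and 125.6, 69.9 and 93.2 CPM in the *Cdkn2a*-deleted lines, which overlap (log2 fold change 0.22, standard error 0.22). The *Nf1*/*Cdkn2a* dKO held both the highest and the lowest line, with a range of 0.84 on the log2 scale (adjusted p = 1.8e-11, edgeR F test). The *p53*-deleted lines ranged over 0.19 (adjusted p = 0.0068), which no longer passed without culture 2 (0.067) or culture 3 (0.071). Without *Cdkn2a*-deleted line 1, the difference between genotypes was −0.01, and without line 2 of that genotype 0.41.

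The 9 genes around CD47 (its receptor, its other binding partners and the enzymes that modify it) all passed the filter. With edgeR 0 were called. An unadjusted p under 0.05 was seen for 3, all higher in the *Nf1*/*Cdkn2a* dKO, beside 22.4% of all tested genes in either direction. DESeq2 and limma-voom called 2 each. The list's median log2 fold change was 0.45. *Thbs1*, a secreted ligand of CD47, was highest with 1899, 1962 and 291.3 CPM against 4701, 4958 and 7222 CPM (difference of 2.02 on the log2 scale, standard error 0.67, adjusted p = 0.15 with edgeR). The groups did not overlap, and line 3 of the *Nf1*/*p53* dKO lay far below the other lines. *Qpct*, a glutaminyl cyclase, was lowest with 8.61, 6.72 and 6.05 against 2.82, 5.71 and 2.00 CPM (−1.02, standard error 0.44, adjusted p = 0.24 with edgeR), and without *Cdkn2a*-deleted line 2 its value was −1.56. *Calr*, the surface signal that opposes CD47, and *Qpctl*, the cyclase that completes the SIRPα binding site of CD47, are named after their values were seen. *Calr* had 1259, 1332 and 1195 against 1969, 2471 and 1807 CPM (adjusted p = 0.079 with edgeR), and *Qpctl* had 19.3, 19.0 and 22.6 against 24.7, 26.5 and 32.3 CPM (0.20).

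The ligands of TIGIT lay higher on average in the *Nf1*/*Cdkn2a* dKO. *Pvr* had 71.0, 71.1 and 74.5 CPM in the *p53*-deleted lines and 100.1, 130.4 and 77.3 CPM in the *Cdkn2a*-deleted lines. The lines did not overlap, but the lowest *Cdkn2a*-deleted line exceeded the highest *p53*-deleted line by less than the cultures of a line differed (log2 fold change 0.51, standard error 0.20, and 0.30 without *Cdkn2a*-deleted line 2). Among the *p53*-deleted lines *Pvr* ranged over 0.06 on the log2 scale and did not pass the test (adjusted p = 0.67), whereas the *Cdkn2a*-deleted lines ranged over 0.76 (adjusted p = 2.0e-08, edgeR F test). Whether the spread of *Pvr* differed between the genotypes was not tested.

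*Nectin2* had 46.3, 48.6 and 21.4 CPM in the *p53*-deleted lines and 47.0, 78.5 and 57.4 CPM in the *Cdkn2a*-deleted lines, which overlap (log2 fold change 0.65, standard error 0.35). Line 3 of the *Nf1*/*p53* dKO lay below all other lines and line 2 of the *Nf1*/*Cdkn2a* dKO above them. Without the former line the log2 fold change was 0.36. *Nectin2* differed between lines in both genotypes, by 1.19 on the log2 scale among *p53*-deleted (adjusted p = 2.4e-12) and by 0.74 among *Cdkn2a*-deleted lines (5.1e-08, edgeR F test). *Pvr* and *Nectin2*, 153.1 kb apart, were both highest in line 2 of the *Nf1*/*Cdkn2a* dKO, but line 3 of the *Nf1*/*p53* dKO, lowest in *Nectin2*, was the highest of its genotype in *Pvr*.

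*Lgals9* varied more between lines of a genotype than between genotypes. It had 25.1, 33.0 and 7.78 CPM in the *p53*-deleted lines and 34.6, 9.46 and 20.8 CPM in the *Cdkn2a*-deleted lines. The genotype means were 22.0 ± 12.9 and 21.6 ± 12.6 CPM (SD, n = 3 lines), and the log2 fold change was −0.02 (standard error 0.63), which ran from −0.53 without *Cdkn2a*-deleted line 1 to 0.41 without *p53*-deleted line 2. Line 3 of the *Nf1*/*p53* dKO and line 2 of the *Nf1*/*Cdkn2a* dKO were low, and the 3 cultures of each agreed, with 6.97 to 8.87 and 8.63 to 10.3 CPM. The lines ranged over 2.09 on the log2 scale among *p53*-deleted (adjusted p = 3.9e-13) and 1.87 among *Cdkn2a*-deleted lines (8.2e-12, edgeR F test).

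Of the 18 checkpoint receptors listed, *Pvrig* was not analysed here and 7 of the other 17 passed the filter. Of these 0 were called with edgeR, and 1 had an unadjusted p under 0.05, beside 22.4% of all tested genes. DESeq2 and limma-voom called 1 each. The median log2 fold change of the 7 was 0.09. *Icos*, a costimulatory receptor of T cells, was highest with 0.27, 0.01 and 0 CPM against 1.08, 0.65 and 2.71 CPM (difference of 3.92 on the log2 scale, standard error 1.39, adjusted p = 0.17 with edgeR), and the difference was 7.38 without *p53*-deleted line 1. Lines 2 and 3 of the *Nf1*/*p53* dKO lay below the level of 3 counts (0.042 and 0.041 CPM), so the size of these differences is not determined. The gene passed the filter through the *Cdkn2a*-deleted lines. *Sirpa*, the receptor of CD47, was lowest with 25.8, 35.6 and 62.6 against 16.3, 19.1 and 44.2 CPM (−0.64, standard error 0.48, adjusted p = 0.47 with edgeR), which overlap. Its value was −0.21 without *p53*-deleted line 3, −0.38 without *Cdkn2a*-deleted line 1 and −1.22 without *Cdkn2a*-deleted line 3. Among receptors named after their values were seen, *Havcr2* (TIM-3) had 14.6, 24.2 and 3.03 against 20.5, 11.5 and 12.4 CPM, and *Tigit* 14.8, 5.64 and 3.97 against 7.35, 22.9 and 3.52 CPM. The lowest of the 6 lines in *Havcr2*, *p53*-deleted line 3, was also the lowest in *Lgals9*. In these lines *Ptprc* and *Cd3e*, which mark leukocytes and T cells, had at most 0.56 and 0.04 CPM. Other listed leukocyte markers were higher, *Cd68* with 1.96 to 7.14 CPM and *Csf1r* with 0.72 to 3.17 CPM. *Laptm5* had 11.8, 11.0 and 18.6 CPM in the *Cdkn2a*-deleted lines and at most 0.50 CPM in the *p53*-deleted lines. The authors passaged the lines before analysis with the aim of pure tumor populations. Which cells held the receptor RNA was not tested.

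*Nt5e*, which makes adenosine from AMP, was low in most lines. It had 4.82, 3.22 and 3.94 CPM in the *p53*-deleted lines and 2.12, 11.3 and 2.71 CPM in the *Cdkn2a*-deleted lines (log2 fold change 0.43, standard error 0.67). Line 2 of the *Nf1*/*Cdkn2a* dKO stood above all other lines, with 9.24 to 12.5 CPM in its cultures, and without it the difference between genotypes turned to −0.72. The *Cdkn2a*-deleted lines ranged over 2.40 on the log2 scale (adjusted p = 1.4e-10, edgeR F test), and the *p53*-deleted lines over 0.58 (adjusted p = 0.0504). The latter passed with raw totals (0.032), with DESeq2 (0.027) and with that genotype fitted alone (0.026).

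The genes that make, move or sense adenosine were mostly lower in the *Nf1*/*Cdkn2a* dKO by value, and 0 of the 13 tested of 17 were called with edgeR. At an unadjusted p under 0.05, 1 was higher and 4 were lower. DESeq2 called 5 (1 higher, 4 lower) and limma-voom 4 of 11 (all lower). Over all genes these tools called 2171 of 15207 and 2173 of 13110. The list's median log2 fold change was −0.57 and its summed level 305.4 to 340.3 CPM against 182.5 to 228.4 CPM. Most of the lower sum lay in *Slc29a1* (mean 84.9 against 19.3 CPM) and *Enpp1* (48.0 against 8.21 CPM), both described below. *Dpp4*, a peptidase of the cell surface, was highest with 0.01, 0.06 and 0 against 0.21, 0.16 and 2.299 CPM (difference of 5.17 on the log2 scale, standard error 1.52, adjusted p = 0.12 with edgeR), and 2.91 without *Cdkn2a*-deleted line 3. In *p53*-deleted lines 1 and 3 *Dpp4* lay below the level of 3 counts (0.039 and 0.041 CPM), so the size of its difference is not determined. It passed the filter through the *Cdkn2a*-deleted lines. *Entpd2*, which hydrolyses ATP, was lowest with 0.57, 2.88 and 0.30 against 0.22, 0.13 and 0.17 CPM (−2.82, standard error 0.92, adjusted p = 0.14 with edgeR), and −1.29 without *p53*-deleted line 2.

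A group of 3 of the abundant genes of the adenosine list, chosen and named after their values were seen, lay lower in every *Cdkn2a*-deleted line. The transporter *Slc29a1* had 50.5, 83.1 and 121.0 against 29.4, 13.3 and 15.1 CPM (adjusted p = 0.061 with edgeR). The deaminase *Ada* had 21.1, 23.1 and 17.6 against 8.13, 9.53 and 10.8 CPM (0.054), and *Enpp1*, which yields AMP, had 33.0, 80.8 and 30.0 against 13.1, 1.99 and 9.56 CPM (0.12). In the same list the kinase *Adk* (102.6, 83.8 and 65.2 against 78.4, 70.4 and 109.3 CPM) and the phosphorylase *Pnp* (64.2, 40.8 and 47.4 against 52.1, 55.8 and 44.7 CPM) overlapped between genotypes. The transporter *Slc29a2* had 10.5, 11.1 and 18.1 against 20.9, 24.4 and 14.95 CPM (difference of 0.60 on the log2 scale), which also overlap. Over the 5 pathway lists together, 66 of 88 genes in the table were tested, 17 (25.8%) had an unadjusted p under 0.05 beside 22.4% of all genes, and the lines of 19 (28.8%) did not overlap between genotypes.

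Of the 9 members that passed the filter on cultures, *Pdcd1lg2* did so through its high line and is left out here. Among the other 8 members, 5 differed between the *p53*-deleted lines, where 73.2% of 14690 genes did, and 6 differed between the *Cdkn2a*-deleted lines, where 56.8% did (edgeR F test, adjusted p under 0.05). *Cd47*, *Cd276*, *Nectin2* and *Lgals9* passed in both genotypes. *Cd274* passed in neither. *Pvr* and *Nt5e* passed between *Cdkn2a*-deleted lines and not between *p53*-deleted lines, and *Cd200* the reverse, without a test of that difference. The median range over lines was 0.52 on the log2 scale for the 8 members and 0.69 for all genes between *p53*-deleted lines, and 0.80 and 0.48 between *Cdkn2a*-deleted lines. Of the latter, line 2 was the highest in *Cd276*, *Pvr*, *Nectin2* and *Nt5e* and the lowest in *Cd47* and *Lgals9*.

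**Figure D4:**
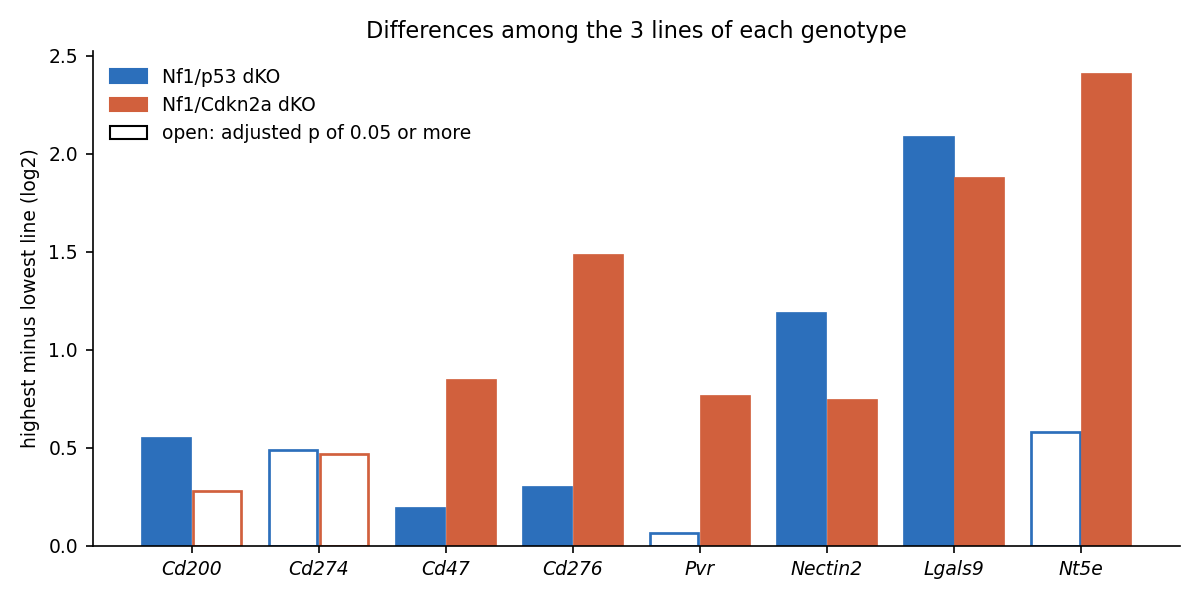
Difference between the highest and the lowest of the 3 lines of a genotype (vertical axis, log2) for the 8 ligand genes tested in both comparisons; filled bars passed the edgeR F test between lines at an adjusted p under 0.05, open bars did not. *Lgals9* ranged over about as much in both genotypes (2.09 and 1.87), while *Nt5e* and *Cd276* ranged over 2.40 and 1.48 between *Cdkn2a*-deleted lines and over 0.58 and 0.30 between *p53*-deleted lines.

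Per kb of exon, which allows a rough comparison of levels of different genes, *Cd200* was the first of the 10 ligands in the *Nf1*/*p53* dKO with 19.7 ± 4.22 CPM per kb (SD, n = 3 lines), and its lowest line (16.8) lay above the highest line of the next gene, *Cd47* (13.8). The order depends on the length used, which joins all annotated exons of a gene, and the isoforms expressed were not examined. In CPM without division by length, the means of *Cd47* (82.8) and *Pvr* (72.2) lay above that of *Cd200* (65.6) in this genotype. *Cd47*, *Pvr*, *Nectin2*, *Lgals9* and *Cd276* followed with means of 13.2 to 9.51 CPM per kb, and each overlapped the next in that order. *Cd274* (0.50) and *Nt5e* (0.46 CPM per kb) came well below and overlapped each other. In the *Nf1*/*Cdkn2a* dKO the order began with *Nectin2* (17.4), *Pvr* (16.8) and *Cd47* (15.3 CPM per kb), whose lines overlapped. *Lgals9* (10.1) and *Cd276* (9.06) came next, and *Cd200* was the sixth with 2.80 ± 0.28 CPM per kb, below every line of *Cd276* and above every line of *Nt5e*. *Nt5e* (0.63), *Cd274* (0.39) and *Pdcd1lg2* (0.35 CPM per kb) overlapped in turn, and *Vtcn1* was the last at 0.014.

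*Cd200* made up 23.3, 27.6 and 26.2% of the summed level per kb of the 10 ligands in the *p53*-deleted lines and 3.56, 3.91 and 4.09% in the *Cdkn2a*-deleted lines. The sum itself was 76.4, 89.1 and 64.2 against 75.7, 79.7 and 63.3 CPM per kb, which overlap. Without *Cd200* it was 58.6, 64.5 and 47.4 in the *p53*-deleted lines and 73.0, 76.5 and 60.7 CPM per kb in the *Cdkn2a*-deleted lines, which also overlap.

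**Figure D5:**
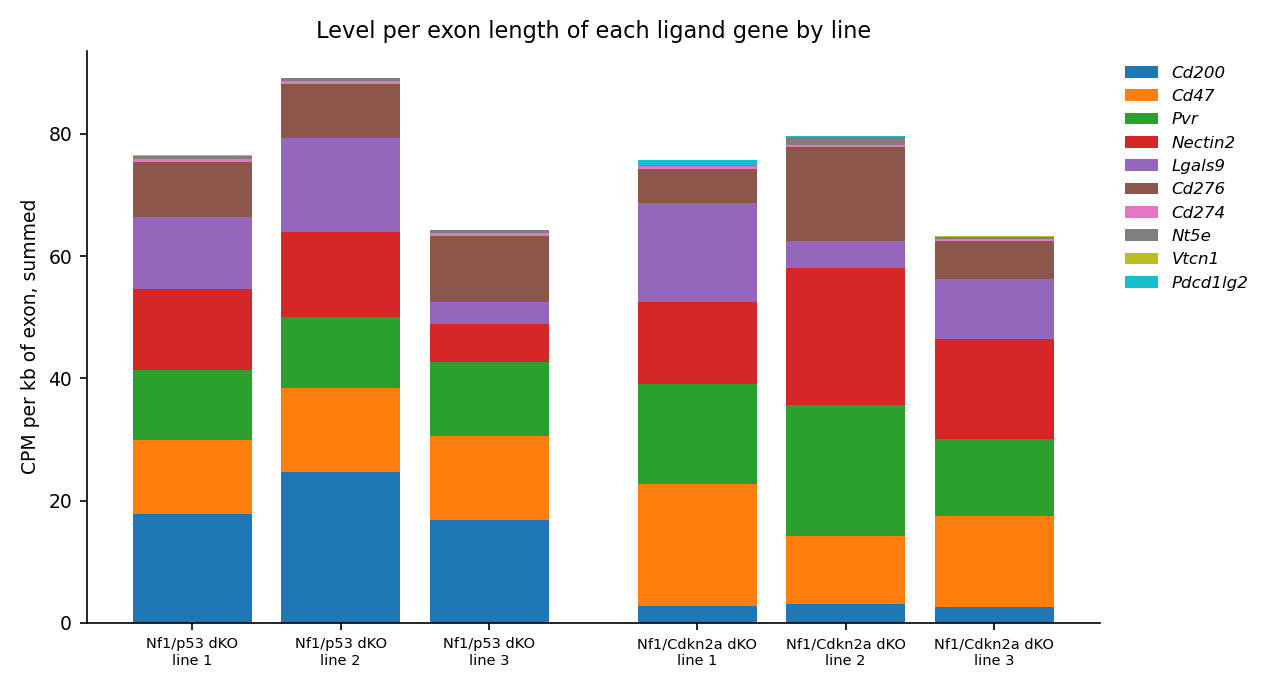
Level of the 10 ligand genes in each cell line, stacked, in CPM per kb of exon (vertical axis, from 0). The totals overlap between genotypes (64.2 to 89.1 and 63.3 to 79.7), while the bottom segment, *Cd200*, is 16.8 to 24.6 in the *p53*-deleted lines and 2.59 to 3.12 in the *Cdkn2a*-deleted lines.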

How the data were processed

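Read counts per gene in 18 cultures of 6 MPNST cell lines were analysed. The authors deposited raw counts, whole numbers per gene and library. The submitters' processing notes name CASAVA, STAR 2.5, DESeq2 1.14.1 and the builds GRCm38 and mm10. The counting tool, strand setting and annotation release are not given in the sources used here. Groups, lines and cultures come from the sample titles. Gene positions and exon lengths are from GENCODE M21, which holds 34490 of the 35275 genes, and promoters are from RefSeq. Of 140 list entries, 139 were found.

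The 3 cultures of a line were summed, filtered (filterByExpr, minimum count 10, minimum total 15), scaled with TMM and compared with edgeR 4.0.16 (limma 3.58.1, R 4.3.3) by the quasi-likelihood test with Benjamini-Hochberg adjustment over all tested genes. Standard errors of log2 fold changes were calculated back from this test, as the absolute fold change divided by the square root of its F statistic. Lines of a genotype were compared on the 18 cultures with an F test. Correlations used log2 CPM with a prior count of 2. Alternatives used DESeq2 1.42.0, limma-voom, other scalings and filters, replicate blocks and omitted replicates. The steps were tested on simulated data. Python 3.11.15, SciPy 1.17.1 and matplotlib 3.10.9 were used for tables and plots.

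Named are the 10 members, the targeted genes, every called gene of a pathway list or else its extremes in log2 fold change, the 5 genes most like *Cd200*, and the tested neighbors. The members and lists were chosen with earlier results of these data known. The labels do not say whether cultures of a line were grown separately, so p-values between lines measure only the spread between these samples, which may be technical. No pair of cultures agreed within sampling noise.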

Additional observations from a re-analysis of the deposited data

Results flagged for a closer look

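A culture far from the others of its genotype was looked for in the 10 ligand genes, 20 groups of 9 cultures. The rule compared the gap to the nearest culture with the range of the 9. It flags about 1 in 20 groups by chance only where the 9 values are independent and normally distributed. Here the 9 cultures came from 3 lines, and 1 counted culture among 8 with 0 counts is always flagged. The chance rate in these data is therefore not known. *Pdcd1lg2* was highest in culture 2 of *Cdkn2a*-deleted line 1, with 2.83 CPM (53 counts) against 1.42 CPM in the next culture. *Pdcd1lg2* was also counted in 1 *p53*-deleted culture, culture 2 of line 2, with 0.082 CPM (2 counts) against 0 in the other 8. *Vtcn1* had 0.317 CPM (7 counts) in culture 1 of *Cdkn2a*-deleted line 3 and 0 in the other 8 cultures of that genotype.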

How the results depend on the processing

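The log2 fold change of *Cd200* kept its sign and moved by less than the spread between lines in all 16 alternatives (−2.95 to −2.62, and −2.92 to −2.62 with 1 line left out). The number of members called between genotypes, 1 in the reported comparison, was 3 with the 18 cultures as separate samples and 3 with the culture number as a replicate block, and 0 with the line number as a replicate block, which called 0 genes in all. With 1 line left out it was 0 to 1. Same-numbered lines of the 2 genotypes had deviations correlated at −0.15 to −0.08, beside 0.03 to 0.10 for lines of different numbers. Same-numbered cultures of different lines had −0.21 to 0.32, beside −0.44 to 0.35 for different numbers. Deviations from a group mean sum to 0 within the group, so these values cannot show whether the numbers pair the samples. No pathway gene was called in the reported comparison, and 27 were called with the cultures as separate samples, 27 with the culture block, 14 with DESeq2, 12 with limma-voom, 2 with raw totals and 2 with no filter. The same alternatives called 6096, 5681, 2171, 2173, 423 and 411 genes in all, of 13110, 13110, 15207, 13110, 15207 and 23859 tested. The reported comparison called 274 of 15207, and leaving out 1 line called 0 to 172. Raw totals moved the median of all genes to −0.16, with 20.3% of called genes higher in the *Nf1*/*Cdkn2a* dKO against 35.4% with TMM. Cultures as separate samples gave 46.8%, limma-voom 52.7%. Without *Cdkn2a*-deleted line 2, *Cd276* moved to −0.68 and *Nt5e* to −0.72. Between the lines of the *Nf1*/*p53* dKO, 5 members were called, and 3 to 5 with 1 culture of each line left out. The median of the neighbors of *Cd200* was 0.17 within 250 kb and 0.10 within 1000 kb, and that of *Cd274* −0.04 and 0.15. Of the 5 genes most like *Cd200*, 0 were kept with 6 line sums and 0 with Spearman's rho. Why the calls differ was not tested. The 17 to 58 reads of *Cd274* and the 0 to 7 of *Vtcn1* per culture limit what depth can show.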
